A study of Oryza sativa with 12 samples.

Results

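The SAPK genes of rice encode the SnRK2 protein kinases, which carry stress and abscisic acid signals. All 10 genes, SAPK1 to SAPK10, were followed in developing seeds of 4 rice strains. A probe set was taken where the array annotation gave it exactly 1 gene and a symbol or synonym of that gene in the RefSeq gene table was one of the 10 names. Each gene had 1 such probe set, so 10 of the 17905 genes named on the array are described. No gene had another probe set assigned to it as a check. Only 22436 of the 57381 probe sets were assigned to 1 gene, and the others were not searched for these genes. The matching of probe sets to the 10 names used no measured value, but the genes were chosen with earlier results of these data known.

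The strains were the wild-type variety Wuxiangjiang9 (WT), labelled as having a normal lysine level, and the transgenic lines GR14, 35S-15 and HFL1, labelled as having a high lysine level. Each group had 3 Affymetrix arrays of developing seeds from field-grown plants, 12 in all. The seed age is 10 days after flowering in the labels of the samples and 15 in the text on the design, and it is the same for all groups. The labels do not state the transgenes, their promoters or the number of plants behind each array, and they name no treatment. Whether a group's arrays hold RNA of different plants is not stated, so p-values cover the array-to-array spread, which could be technical. Earlier work on these lines describes HFL1 as a combination of GR14 and 35S-15, which the labels do not give. The question of the study was how seed development relates to lysine metabolism.

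Abscisic acid binds PYL/RCAR receptors, which then hold back the clade A type 2C protein phosphatases. These phosphatases otherwise keep SnRK2 kinases inactive, and released kinases phosphorylate bZIP transcription factors such as TRAB1 that switch on genes of seed maturation and drought response. In rice protoplasts every SAPK was activated by hyperosmotic stress, and the members of subclass III, SAPK8, SAPK9 and SAPK10, also by abscisic acid. Subclass I holds SAPK4 to SAPK7 and subclass II holds SAPK1 to SAPK3.

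Some facts of the arrays bear on the results. Values are log2 of the MAS5 signal, a background-corrected intensity per probe set. The array medians ran from 5.67 to 6.09 on that scale. All 10 SAPK probe sets were above the median of their array on 12 of 12 arrays, the lowest single value being 7.75. The WT arrays were not alike on a reporter probe set, RPTR-Os-K01193-1_at, which read 13.51 on WT array 2, 13.78 on WT array 3 and 4.53 on WT array 1, on the log2 scale. The 9 arrays of the lines read 0.36 to 4.67, so WT arrays 2 and 3 stood apart from all other 10 arrays, and whether these arrays hold what their label says was not tested. Differences from WT are therefore also given with WT array 1 as the only control, where the spread comes from the other groups. This was done for the called SAPK genes and for SAPK1, SAPK10, ABA8OX1, VP1 and CIPK17. The folds against WT given for the other genes and for the marker lists rest on all 3 WT arrays. GR14 array 3 had the largest log2 difference between the 3' and 5' actin control probe sets, a sign of RNA quality, at 6.43 against 4.69 to 5.92 on the other arrays. The other control transcripts ordered the arrays differently: the GAPDH difference was largest on 35S-15 array 1 (4.93) with GR14 array 3 next (3.87), and the EF1a difference was largest on WT array 1 (0.88) and lowest on GR14 array 3 (-2.29). The starchy endosperm markers, 27 probe sets of storage protein and starch genes, had a log2 summed signal between 18.81 and 19.72 on every array, so the labelled tissue carried its defining transcripts.

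SAPK9 rose in GR14 seeds and was the SAPK gene with the largest difference from WT. SAPK9 (LOC4352660) is a kinase of the abscisic acid-activated subclass III, reported in rice as a positive regulator of drought tolerance. Its log2 signal was 9.40, 9.16 and 8.20 on the WT arrays and 11.40, 11.39 and 11.71 on the GR14 arrays. The 35S-15 arrays gave 8.95, 8.72 and 8.64, and the HFL1 arrays gave 8.61, 8.39 and 8.47. Every GR14 array lay above every array of the other 3 groups. WT array 3 was the lowest of all 12 and made WT the most variable group, with an SD of 0.64 (n = 3) against 0.11 to 0.18 in the lines. SAPK9 was higher in GR14 than in WT by 2.58 ± 0.25 (SE) on the log2 scale, a 5.98-fold rise with a 95% confidence interval of 4.10 to 8.72 (limma adjusted p = 5.67e-05). The rise was 2.10 with WT array 1 as the only control (limma adjusted p = 0.00106) and 2.22 without WT array 3. In whole seeds, more cells of a type and more RNA per cell cannot be told apart.

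**Figure D1:**
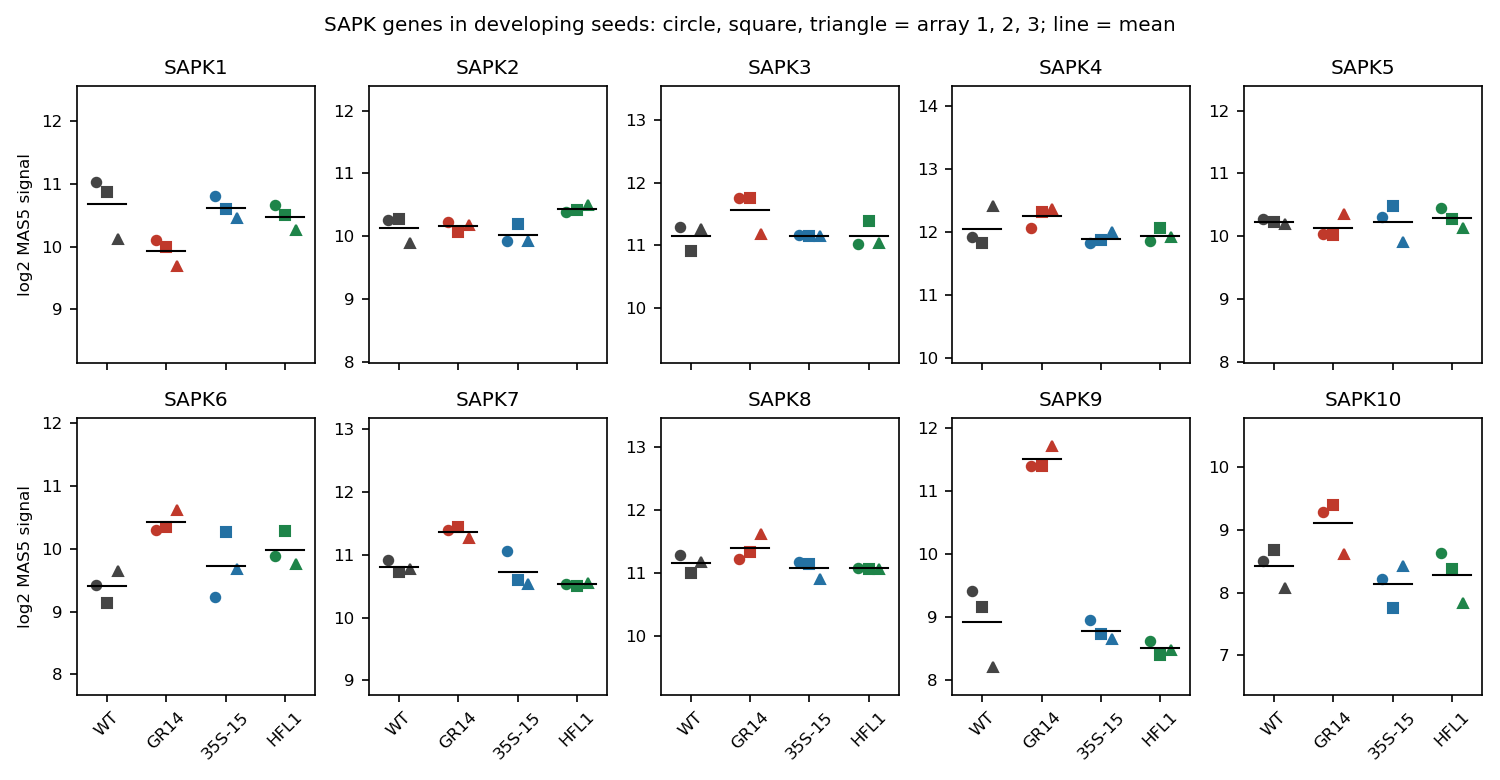
Log2 MAS5 signal of each SAPK gene (vertical axes, every panel spanning the same number of log2 units) by strain (horizontal axes); the symbols are arrays 1, 2 and 3 of a group and each line is the group mean. The 3 GR14 points of SAPK9 lie between 11.39 and 11.71, above all 9 points of the other groups, which reach at most 9.40.

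SAPK9 was called in each comparison of GR14 with another group. It was lower in 35S-15 than in GR14 (log2 fold -2.73 ± 0.25 SE, limma adjusted p = 2.94e-05) and lower in HFL1 than in GR14 (-3.01 ± 0.25, limma adjusted p = 1.32e-05). Its group means fell in the order GR14 (11.50 ± 0.18, SD, n = 3), WT (8.92 ± 0.64), 35S-15 (8.77 ± 0.16) and HFL1 (8.49 ± 0.11), and only the step from GR14 to WT passed the test. The 35S-15 difference from WT was -0.15, with a 95% interval of -0.69 to 0.39, and that of HFL1 was -0.43, with an interval of -0.97 to 0.12. These comparisons share control arrays. When the differences of GR14 and of 35S-15 from WT were added, HFL1 lay below that sum, with a log2 departure of -2.86 ± 0.36 (SE, limma adjusted p = 0.00119). The SAPK9 probe set is of the _s_at type, a name that marks probes shared between transcripts, so a contribution of a similar transcript cannot be separated here.

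Against WT, 3 of the 10 members were called in GR14, all higher, where 5.66% of the 31792 tested probe sets were called in either direction and 2.7% were called higher. The members were SAPK9, SAPK6 and SAPK7, and the last 2 belong to subclass I. The median log2 fold of the 10 members was 0.32, against 0.03 over all tested probe sets, and 8 of the 10 folds were above 0. By subclass, the median folds were 0.38 in I, 0.02 in II and 0.68 in III. The arrays of GR14 and WT did not overlap for 4 of the 10 members, the 3 called and SAPK1, against 25% of all probe sets. The count of calls depends on single arrays: it was 1, namely SAPK9, without WT array 1, without WT array 2 or without any 1 of the GR14 arrays. Without WT array 3 it was 3, with SAPK1 in place of SAPK7. With WT array 1 as the only control the count was 2, SAPK9 and, lower in GR14, SAPK1.

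SAPK6 (LOC4329630), which phosphorylates bZIP factors of the abscisic acid response in rice, rose in GR14 by less than SAPK9. Its log2 signal was 9.43, 9.14 and 9.64 on the WT arrays and 10.30, 10.34 and 10.61 on the GR14 arrays, and these groups did not overlap. SAPK6 rose by 1.01 ± 0.24 (SE) in GR14, a 2.02-fold change with an interval of 1.41 to 2.89 (limma adjusted p = 0.0262). With WT array 1 as the only control the fold was 0.99 on the log2 scale and did not pass (limma adjusted p = 0.203). In 35S-15 the arrays were spread widely, at 9.23, 10.26 and 9.68, and in HFL1 they read 9.88, 10.28 and 9.76. The HFL1 arrays all lay above the WT arrays, but the log2 fold of 0.57 ± 0.24 (SE) did not pass over all probe sets (limma adjusted p = 0.725). The group means ran from GR14 (10.42) through HFL1 (9.97) and 35S-15 (9.72) to WT (9.40), and no neighbours in that order differed past the test.

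SAPK7 (LOC4335877), another subclass I kinase, also rose in GR14, by less than SAPK6. Its log2 signal was 10.92, 10.72 and 10.77 on the WT arrays and 11.39, 11.44 and 11.26 on the GR14 arrays. The HFL1 arrays gave 10.54, 10.50 and 10.56, and the 35S-15 arrays 11.05, 10.60 and 10.53. The GR14 arrays were again the 3 highest of the 12, and the HFL1 arrays lay below the WT arrays. SAPK7 rose in GR14 by 0.56 ± 0.15 (SE), a 1.47-fold change (limma adjusted p = 0.0401), and the call was lost with WT array 1 as the only control (0.45, limma adjusted p = 0.385). The differences from GR14 also passed in the other lines, at -0.63 ± 0.15 in 35S-15 (limma adjusted p = 0.0201) and -0.83 ± 0.15 in HFL1 (limma adjusted p = 0.00373). The HFL1 difference held in each of 22 alternative settings, while the 35S-15 difference was lost in 7 of 22.

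SAPK1 (LOC4333017), a subclass II kinase, had the lowest fold of the 10 in GR14. Its log2 signal was 11.02, 10.86 and 10.13 on the WT arrays and 10.10, 10.00 and 9.68 on the GR14 arrays. The groups did not overlap, but the gap was only that between WT array 3 and GR14 array 1. The log2 fold of -0.74 ± 0.22 (SE) had a limma adjusted p of 0.0651 and did not pass. Without WT array 3 it was -1.02 (limma adjusted p = 0.00644), and with WT array 1 as the only control it was -1.10 (limma adjusted p = 0.0358). It also passed, at -0.74, when only probe sets above the 70th percentile were tested (limma adjusted p = 0.0489). The 35S-15 arrays (10.80, 10.59 and 10.46) and HFL1 arrays (10.65, 10.51 and 10.26) all lay above the GR14 arrays and within the WT range.

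**Figure D2:**
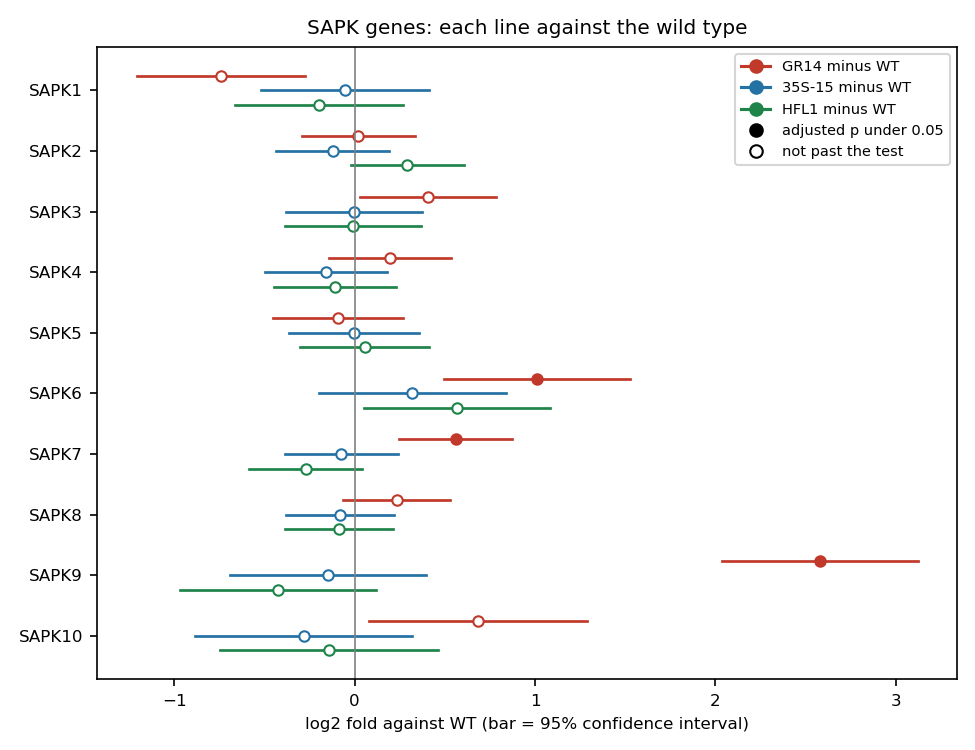
Log2 fold of each SAPK gene in GR14, 35S-15 and HFL1 against WT (horizontal axis) with 95% confidence intervals; filled points have an adjusted p under 0.05. Filled points are SAPK6 (1.01), SAPK7 (0.56) and SAPK9 (2.58) in GR14, and none in 35S-15 or HFL1.

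The other subclass III members had smaller differences than SAPK9. SAPK10 (LOC4333435) had log2 signals of 8.50, 8.68 and 8.07 in WT and 9.29, 9.40 and 8.62 in GR14, where the third GR14 array lay inside the WT range. Its log2 fold in GR14 was 0.68, with an interval of 0.08 to 1.29 (limma adjusted p = 0.187). With WT array 1 as the only control that fold was 0.60. SAPK8 (LOC4334218), which phosphorylates a calcium channel of the chilling response in rice, had a fold of 0.23 with an interval of -0.07 to 0.53. The log2 interval of SAPK9 in the same comparison, from 2.04 to 3.12, lies above both. Against GR14, SAPK10 was at -0.97 in 35S-15 (limma adjusted p = 0.0614) and at -0.82 in HFL1 (limma adjusted p = 0.103), neither called. Without GR14 array 3 both passed, at -1.21 (limma adjusted p = 0.0304) and -1.06 (limma adjusted p = 0.0472).

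The other 4 members, like SAPK1, SAPK8 and SAPK10, were not called in any comparison. SAPK2 (LOC4343944), whose loss makes rice germination insensitive to abscisic acid, ran from 9.89 to 10.49 over the 12 arrays. Its 3 highest values were the HFL1 arrays, at 10.38, 10.41 and 10.49, and its log2 folds of 0.29 against WT and 0.41 against 35S-15 did not pass (limma adjusted p = 0.770 and 0.974). SAPK3 (LOC4349411) ran from 10.91 to 11.76, with GR14 arrays 1 and 2 highest (11.76 and 11.75) and GR14 array 3 at 11.18, inside the WT range. SAPK4 (LOC4324934), linked to salt tolerance in rice, ran from 11.82 to 12.42, with WT array 3 highest. SAPK5 (LOC4337502) ran from 9.90 to 10.48. The GR14 log2 folds of SAPK2, SAPK3, SAPK4 and SAPK5 were 0.02, 0.41, 0.20 and -0.09, and the widest of their 95% intervals reached 0.78.

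In 35S-15 and in HFL1, 0 of the 10 members were called against WT by limma, where 0.0283% of all probe sets were called in each line. At an unadjusted p under 0.05 there were 0 members in 35S-15 and 1 in HFL1, SAPK6, against 1969 and 2142 of all 31792 tested probe sets. The median log2 folds of the members were -0.08 and -0.10, against 0.01 over all probe sets in each line, and the folds ran from -0.28 to 0.32 in 35S-15 and from -0.43 to 0.57 in HFL1. The 3 members whose HFL1 and WT arrays did not overlap were SAPK2 and SAPK6, higher, and SAPK7, lower; 12.9% of all probe sets did not overlap in that comparison, and no member was without overlap in 35S-15, against 11.1% of all.

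The lines were also compared with one another. Between 35S-15 and GR14, 2 members were called, SAPK9 and SAPK7, both lower in 35S-15, where 5.94% of all probe sets were called and 2.52% were called lower. That count was 1, SAPK9, without GR14 array 1, GR14 array 2 or 35S-15 array 3. Without 35S-15 array 2 the count was 2, with SAPK6 (-0.96, limma adjusted p = 0.029) in place of SAPK7 (limma adjusted p = 0.0769). The count was 3 without WT array 3, with SAPK1 added, or without GR14 array 3, with SAPK10 added. The arrays of these lines did not overlap for 8 of the 10 members, against 24.2% of all probe sets. SAPK3, SAPK4, SAPK6, SAPK7, SAPK8, SAPK9 and SAPK10 were lower in 35S-15 on every array and SAPK1 was higher. Between HFL1 and GR14, 2 members were called, again SAPK9 and SAPK7, where 6.71% of all were called and 2.79% were called lower. The arrays of 7 members did not overlap, against 26.3% of all. Of those 7, SAPK1 and SAPK2 were higher in HFL1 and SAPK4, SAPK6, SAPK7, SAPK8 and SAPK9 lower. Both comparisons share the GR14 arrays. Without GR14 array 3 the count for HFL1 was 4, with SAPK3 (-0.61) and SAPK10 (-1.06) added. Between HFL1 and 35S-15, limma called 0 members, where 0.00629% of all were called; 1 member, SAPK2, had an unadjusted p under 0.05. Their arrays did not overlap for SAPK2, higher in HFL1, and SAPK9, lower, against 9.34% of all. HFL1 departed from the sum of both other lines at 1 member, SAPK9, where 1.57% of all did so and 0.547% did so downwards.

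The nearest profiles were sought among 2756 tested probe sets with an informative gene name, by the root mean square difference of the centred log2 values over the 12 arrays. For SAPK9 the nearest was SAUR39, of the auxin-responsive SAUR family, at a difference of 0.35 log2 units. HSF03, a heat shock factor (0.47), BBD1 (0.51), the aquaporin OsTIP4;1 (0.56) and the light-regulated gene LIR1 (0.58) followed. Their log2 folds in GR14 against WT ran from 1.61 for OsTIP4;1 to 3.01 for BBD1, with SAUR39 at 2.28. For SAPK6 the nearest were BRE1B (0.17), OsPPT2 (0.19), MRL7 (0.20), wsl3 (0.20) and BBD2 (0.21), with log2 folds of 0.87 to 1.06. For SAPK7 they were PLA2-III (0.13), a gene annotated as AtMAP70-3 (0.13), RNAH (0.14), TFIIB (0.16) and ERH1 (0.16), with log2 folds of 0.37 to 0.57. The choice by profile over the same 12 arrays fixes the direction of these folds, so they are a description and no test. The profiles of SAPK6 and SAPK7 span fewer log2 units than that of SAPK9, so the distances of the 3 searches are not comparable.

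**Figure D3:**
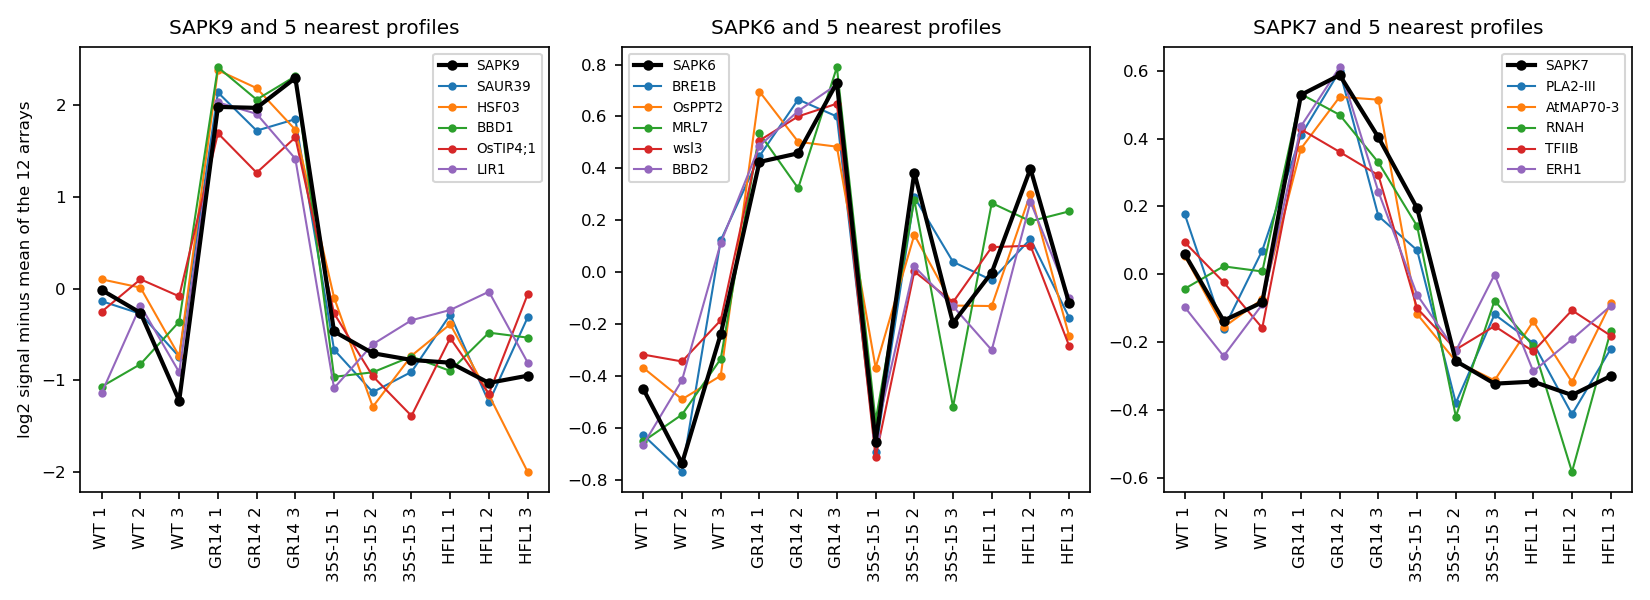
Log2 signal minus the mean of the 12 arrays (vertical axes) by array (horizontal axes) for SAPK9, SAPK6 and SAPK7 in black and the 5 named genes with the nearest profile in colour; the vertical scales differ between panels. The GR14 arrays are the high points of each black line, and SAPK9 runs from 8.20 to 11.71 before centring.

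The genes next to the 3 called members in the RefSeq gene order were read against the 5.66% of all probe sets called in GR14. Of the 10 nearest genes of SAPK9, 5 on each side, 4 had tested probe sets, and 0 of those 6 probe sets were called in GR14 by limma, and 0 had an unadjusted p under 0.05. For SAPK6 limma called 0 of 9 probe sets and 0 had an unadjusted p under 0.05. For SAPK7 limma called 0 of 8, and 1 had an unadjusted p under 0.05. Next to SAPK1, SAPK2 and SAPK4, 1 probe set each was called. With so few probe sets at that background, nothing is read from these counts.

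Of the other abscisic acid genes matched by name, ABA8OX1 and VP1 were called in GR14. The match found 1 receptor, 7 clade A phosphatases, 2 bZIP factors, 1 synthesis gene and 2 breakdown genes. Other names sought, among them the NCED genes of abscisic acid synthesis, matched no probe set with 1 gene. The pathway is therefore covered only in part. Against WT in 35S-15 and HFL1, limma called 0 of the 106 tested probe sets of all other lists, pathway, kinase and marker genes together. In each line 0.0283% of all probe sets were called, so little is read from these counts of 0. Of the 106, 14 and 9 had an unadjusted p under 0.05, against 1969 and 2142 of all 31792 tested probe sets. Among the genes upstream of the kinases, the receptor PYL5 stood at 0.29 above WT on the log2 scale (limma adjusted p = 0.445). Of 7 clade A phosphatases limma called 0, with 1 at an unadjusted p under 0.05 and a median log2 fold of 0.16. The bZIP factors downstream, TRAB1 and bZIP23, had folds of -0.09 and 0.41, neither called. ABA1, the zeaxanthin epoxidase of abscisic acid synthesis, had a fold of -0.51 against WT (limma adjusted p = 0.38). Between the lines, ABA1 was higher in 35S-15 than in GR14 by 1.16 ± 0.30 (SE, limma adjusted p = 0.04). In that comparison 1 of the 2 breakdown probe sets was called lower in 35S-15 (limma adjusted p = 0.036). So was 1 of the 12 abscisic acid responsive probe sets (limma adjusted p = 0.00398). Over all probe sets, 5.94% were called there and 2.52% were called lower.

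ABA8OX1, an abscisic acid 8'-hydroxylase that starts the breakdown of the hormone, rose in GR14. Its log2 signal was 6.39, 5.69 and 7.21 in WT and 9.54, 8.61 and 7.41 in GR14, so the groups did not overlap and GR14 array 3 lay just above WT array 3. The 35S-15 arrays read 6.19 to 6.93 and the HFL1 arrays 7.20 to 7.40. The rise was 2.09 ± 0.48 (SE, limma adjusted p = 0.0233). It was lost with WT array 1 as the only control (2.13, limma adjusted p = 0.127), and without WT array 1, WT array 2, GR14 array 1 or GR14 array 2. The WT values lie near the array median. ABA8OX2 had a fold of 0.65 (limma adjusted p = 0.362).

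Of 12 tested probe sets of abscisic acid responsive genes, 1 was called in GR14, higher, with a median log2 fold of 0.33 over the list. The medians of the same list were 0.38 in 35S-15 and -0.79 in HFL1, with 0 called by limma in each and 0 and 3 at an unadjusted p under 0.05. It was VP1, the maturation regulator that acts with these bZIP factors, at 11.44, 10.57 and 10.47 in WT and 11.80, 12.28 and 12.15 in GR14. VP1 rose by 1.25 ± 0.26 (SE, limma adjusted p = 0.0139), but by 0.64 with WT array 1 as the only control, not past the test (limma adjusted p = 0.387). It also missed the test without WT array 2, WT array 3 or GR14 array 2. VP1 read 10.10 to 11.01 in 35S-15 and 10.03 to 10.36 in HFL1, below every GR14 array. Between HFL1 and GR14 it was the only probe set of the list called, lower in HFL1 (limma adjusted p = 0.000678), where 6.71% of all were called. The departure of HFL1 was called for 1 probe set of the list, downwards (limma adjusted p = 0.0454), where 1.57% of all were called. The other 9 genes of the list, RAB16B, RAB16C, RAB16D, RAB21, RAB25, DHN1, LEA19, EM and SALT, were not called in GR14 against WT, with log2 folds from -0.23 to 0.92.

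**Figure D4:**
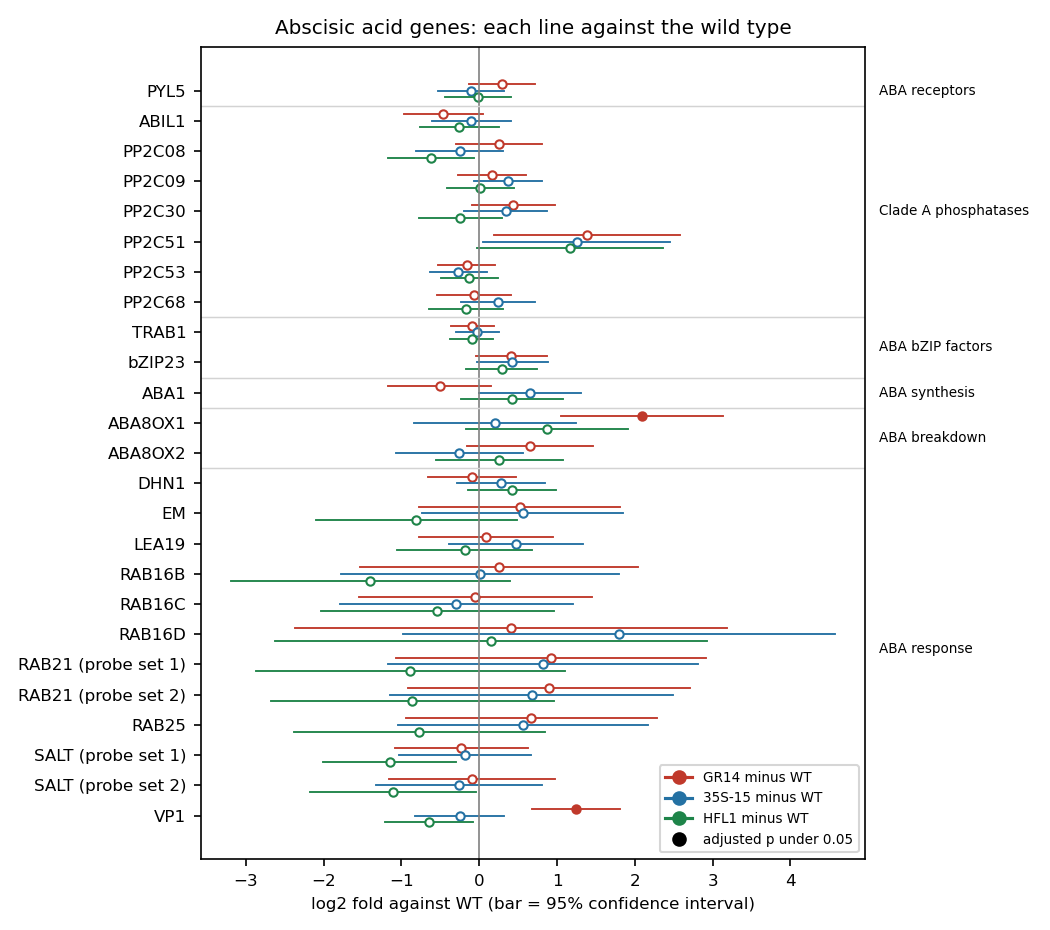
Log2 fold against WT (horizontal axis, bars are 95% confidence intervals) of the tested probe sets of abscisic acid genes, grouped by role, in GR14, 35S-15 and HFL1; filled points have an adjusted p under 0.05. Only ABA8OX1 (2.09) and VP1 (1.25) in GR14 are filled, and the responsive genes of the RAB group have wide intervals.

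The sister kinase families give a background. The 32 tested CIPK (SnRK3) probe sets represent 22 genes for kinases that act with calcium sensors. Against WT, 1 of them was called in GR14, where 5.66% of all probe sets were called. CIPK17 had a log2 fold of -1.07 ± 0.25 (SE, limma adjusted p = 0.0256). It read 8.20, 8.56 and 8.06 in WT and 6.81, 7.60 and 7.21 in GR14, and these groups did not overlap. The call was lost with WT array 1 as the only control (limma adjusted p = 0.228) and without WT array 1, WT array 2, GR14 array 1 or GR14 array 3. The median CIPK fold in GR14 was 0.00. Against GR14, 2 CIPK probe sets were called higher in 35S-15 and 3 in HFL1, where 5.94% and 6.71% of all probe sets were called. Of 8 SnRK1 probe sets, for the energy-sensing kinases OSK1, OSK3 and OSK24, limma called 0 in GR14, with 1 at an unadjusted p under 0.05 and a median log2 fold of -0.04. Whether the SAPK family differs from these families was not tested.

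Of the marker lists, that of the green pericarp differed most between GR14 and WT, where 5.66% of all probe sets were called. The median log2 folds were -1.80 for green pericarp, 0.22 for embryo and aleurone and 0.26 for starchy endosperm. Of 15 tested probe sets of green pericarp markers, which are photosynthesis genes, 7 were lower in GR14 and 0 higher, among them PORA of chlorophyll synthesis (-2.63 on the log2 scale). The log2 summed signal of all 16 was 16.14 to 16.26 in GR14 against 16.98 to 17.17 in WT, 17.19 to 17.62 in 35S-15 and 17.24 to 17.51 in HFL1. Of 6 embryo and aleurone probe sets, 1 was higher, that of VP1, and their summed signal was 14.91 to 15.56 in GR14, 14.24 to 15.40 in WT, 14.99 to 15.43 in 35S-15 and 14.33 to 14.89 in HFL1, so every HFL1 array lay below every GR14 array. The median log2 fold of the 6 between HFL1 and GR14 was 0.07, so the lower sums in HFL1 are not a shift of the whole list. Between HFL1 and GR14, 1 of the 6 was called, VP1 (-1.89), where 6.71% of all probe sets were called. At an unadjusted p under 0.05 there were 4, of which VP1 and EM (-1.33) were lower in HFL1 and both probe sets of OSH1 (0.45 and 0.83) higher. Of 22 tested starchy endosperm probe sets 1 was higher in GR14, that of the starch synthase SSI (1.26 on the log2 scale, limma adjusted p = 0.0291). The endosperm sum was 19.14 to 19.54 in GR14 and 18.81 to 19.20 in WT. No marker was at 0 on any array. Their part in the SAPK differences was not tested.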

How the data were processed

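Transcripts were measured on 12 Affymetrix rice arrays, with 3 for each of 4 strains. The deposited values are intensity, the MAS5 signal per probe set on a linear scale, per the submitters' processing notes, which name no version or settings. After leaving out 2% at each end, the mean signal was 500.1 on every array, so the values are on a common scale. Depth has no meaning here, and the number of arrays limits the precision.

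Log2 of the signal was taken without further normalization. Control probe sets (123 AFFX and 64 RPTR) were left out of the tests. Of 57381 probe sets, the 31792 above their array's median on at least 3 arrays were tested. With limma 3.58.1 in R 4.3.3, lmFit and eBayes with an intensity trend were run on 4 group means, two-sided, with Benjamini-Hochberg adjustment over all tested probe sets at 0.05. Probe sets were named through gene identifiers with the RefSeq table of assembly ASM3414082v1: 22436 had 1 gene and 95 several. No build is named for the array, so no coordinates are given, and no sequences of these genes were used here.

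Tested on simulated data (31962 probe sets, GR14 against WT), 51 of 100 changes of 1 and 90 of 100 changes of 2 on the log2 scale were called, with 9 false calls. The changed probe sets were drawn from those more than 1 log2 unit above the overall median, with independent normal noise. They were far fewer than the 1799 called in GR14 against WT, so these rates need not hold for the reported fit. The members, gene lists and tests were chosen with earlier results of these data known. Named were all members, of each other list at most 4 genes called against WT, and the 5 nearest named profiles of each called member. Of the embryo and aleurone markers, EM and OSH1 were also named, for an unadjusted p under 0.05 between HFL1 and GR14. Where a list has few members on the array, all are named. TRAB1 was kept out of the synthesis list, which its synonym aba1 would have joined. Alternatives were other normalizations, filters, variance models, a pseudocount of 50, other sets of arrays or probe sets, and leaving out each array.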

Additional observations from a re-analysis of the deposited data

Results flagged for a closer look

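The difference of SAPK9 between GR14 and WT was not matched by that between HFL1 and 35S-15. GR14 differed from WT by 2.58 on the log2 scale, whereas HFL1 differed from 35S-15 by -0.28. The test of the difference between these differences gave -2.86 ± 0.36 (SE, limma adjusted p = 0.00119), and it stayed between -2.37 and -3.10 over 21 alternatives, all past the test. No other SAPK gene departed past the test; SAPK7, at -0.76 with a limma adjusted p of 0.100, came nearest.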

How the results depend on the processing

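Over 22 alternatives no called SAPK difference changed sign. SAPK9 in GR14 against WT passed in all 21 that kept its probe set, with log2 folds of 2.10 to 2.82; SAPK6 passed in 15 of 22 (0.88 to 1.13) and SAPK7 in 9 of 22 (0.45 to 0.62). The number of members called in GR14 against WT, 3 in the reported fit, was 1 without the intensity trend, 2 with median centring, no filter, the compared groups alone, WT array 1 as the only control or no _x_at and _s_at probe sets, 4 with the 70th-percentile filter, and 1 to 3 when single arrays were left out. Between 35S-15 and GR14 it was 2, and 1 with median centring, without _x_at and _s_at probe sets, without the trend or with the compared groups alone, and 1 to 3 when arrays were left out. Between HFL1 and GR14 it was 2, and 1 without _x_at and _s_at probe sets, and 2 to 4 when arrays were left out. For the departure of HFL1 it was 1, and 0 by limma without _x_at and _s_at probe sets, a setting that removes SAPK9. It was 0 in every alternative for the other 3 comparisons. Of 62 differences not called, 6 were called in some alternative and 21 changed sign while not called. Over all probe sets the counts ran from 737 to 1961 in GR14, 6 to 26 in 35S-15 and 6 to 24 in HFL1 against WT (1799, 9 and 9 as reported), 1123 to 2049 for 35S-15 and 1167 to 3021 for HFL1 against GR14 (1889 and 2133), 1 to 3 for HFL1 against 35S-15 (2), and 253 to 662 for the departure (498). By alternatives chosen after seeing the data, ABA8OX1 passed in 14 of 21, VP1 in 17 of 22 and CIPK17 in 16 of 22 alternatives. The cause of these losses was not tested. No paired analysis was possible because the labels give no replicate number within a group.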

Other observations

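SAPK10 varied between arrays of the same strain along with the embryo and aleurone markers and the starchy endosperm markers. In 4 of 4 groups the array with the lowest SAPK10 signal also had the lowest summed signal of the embryo and aleurone markers. In 3 of 4 groups the highest arrays matched as well. In WT, SAPK10 read 8.50, 8.68 and 8.07 and the log2 marker sum 15.21, 15.40 and 14.24. In GR14 they read 9.29, 9.40 and 8.62 against 15.53, 15.56 and 14.91. The starchy endosperm sum was lowest on the same arrays as the embryo and aleurone sum in 4 of 4 groups. Its match with the lowest SAPK10 arrays is therefore no separate observation, and the lowest arrays cannot tell the lists apart. The highest arrays of the starchy endosperm markers matched those of SAPK10 in 2 groups. For SAPK9 the lowest array matched that of the embryo and aleurone markers in 1 group, WT, and for SAPK1 in 3. The SAPK10 match was picked out after seeing all 30 pairs of a SAPK gene and a marker list, which are not independent. With 3 arrays a group it is a description.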
